A study of Homo sapiens with 18 samples.

Results

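The genes described here encode 10 RNA-binding proteins of 3 families: the heterogeneous nuclear ribonucleoproteins HNRNPU, HNRNPA1, HNRNPA2B1, HNRNPK, HNRNPC and HNRNPD, the poly(C)-binding proteins PCBP1 and PCBP2, and the serine/arginine-rich splicing factors SRSF1 and SRSF2. For each, MYC peaks that reached within 2 kb of its hg19 start site were taken from the lists of all 9 MYC ChIP-seq libraries of the series. This gave 172 peaks of the 150870 listed on chromosomes 1 to 22 and X, and 24 of the 43222 regions left after overlapping peaks of all lists were merged. The genes were chosen by name with their calls and strength in these lists known, so calls, fold enrichments and ranks are given as a description, without a test.

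The cells were MCF10A, an immortalised, non-tumour breast epithelial line, transformed with ectopic MYC and the PI3K mutant PI3KH1047R. They carried 1 of 2 doxycycline-induced hairpins against G9a (shG9a_1 or shG9a_4) or a scramble hairpin (shSCR). All groups shared the ectopic MYC, the mutant PI3K and 72 h of doxycycline at 2 µg/mL, and each had 3 biological replicates per the series design. MYC was immunoprecipitated with the antibody N262, so endogenous and ectopic MYC were not told apart. G9a, encoded by EHMT2, methylates histone H3 at lysine 9, and the study asked how its knockdown affects the binding of MYC. Peak lists hold no expression, so neither the knockdown nor the identity of the cells was checked here.

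The hnRNP proteins bind nascent transcripts and take part in splicing, stability and export of mRNA. The poly(C)-binding proteins recognise cytosine-rich RNA and act in mRNA stability and translation, and the SR proteins bind exonic enhancers and recruit the splicing machinery. MYC binds DNA with its partner MAX, with a preference for E-boxes such as CACGTG, and is known to raise the levels of HNRNPA1, HNRNPA2B1 and SRSF1 in tumour cells. HNRNPA2B1 shares a divergent promoter with CBX3 and SRSF2 one with MFSD11, and HNRNPA1 lies close to CBX5, so a peak there cannot be given to 1 gene of the pair.

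RefSeq promoter windows of build GRCh38.p14, from 250 bases before to 50 after the start site, were matched by symbol for 8 of the 10 genes, all but HNRNPA1 and SRSF2. Bases −250 to −1 are shown 5′ to 3′ on the gene's strand for 5 of them. HNRNPU, HNRNPK and PCBP2 are shown because MYC summits recurred within this stretch, and HNRNPD and SRSF1 because their stretch holds E-boxes. Capitals mark the canonical E-box CACGTG, the non-canonical E-box CACGCG, which reads CGCGTG on the other strand, and the GC box GGGCGG, which reads CCGCCC there. The stretches lie at chr1:244864544-244864793 (minus strand, HNRNPU), chr9:83980616-83980865 (minus strand, HNRNPK), chr4:82373992-82374241 (minus strand, HNRNPD), chr12:53451852-53452101 (plus strand, PCBP2) and chr17:58007247-58007496 (minus strand, SRSF1).
HNRNPU: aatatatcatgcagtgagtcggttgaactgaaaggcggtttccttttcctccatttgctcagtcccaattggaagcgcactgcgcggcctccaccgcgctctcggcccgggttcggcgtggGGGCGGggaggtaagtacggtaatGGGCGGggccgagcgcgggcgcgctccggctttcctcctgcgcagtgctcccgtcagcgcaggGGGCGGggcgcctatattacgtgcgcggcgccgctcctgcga
HNRNPK: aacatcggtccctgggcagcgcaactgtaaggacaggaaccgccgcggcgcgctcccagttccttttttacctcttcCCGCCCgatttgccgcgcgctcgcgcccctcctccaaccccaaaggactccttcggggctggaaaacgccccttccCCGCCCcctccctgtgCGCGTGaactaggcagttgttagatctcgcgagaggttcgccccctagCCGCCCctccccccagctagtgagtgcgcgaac
HNRNPD: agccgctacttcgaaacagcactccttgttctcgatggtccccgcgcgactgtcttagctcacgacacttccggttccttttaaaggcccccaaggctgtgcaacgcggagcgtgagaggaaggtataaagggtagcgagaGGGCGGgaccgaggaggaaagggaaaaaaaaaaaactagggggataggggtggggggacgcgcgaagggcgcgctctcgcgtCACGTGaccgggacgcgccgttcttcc
PCBP2: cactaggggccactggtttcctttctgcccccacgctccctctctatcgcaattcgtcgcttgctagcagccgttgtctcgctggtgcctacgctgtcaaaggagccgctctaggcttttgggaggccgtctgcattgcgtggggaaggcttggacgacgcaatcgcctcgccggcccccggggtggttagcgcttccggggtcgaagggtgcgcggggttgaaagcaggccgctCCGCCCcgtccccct
SRSF1: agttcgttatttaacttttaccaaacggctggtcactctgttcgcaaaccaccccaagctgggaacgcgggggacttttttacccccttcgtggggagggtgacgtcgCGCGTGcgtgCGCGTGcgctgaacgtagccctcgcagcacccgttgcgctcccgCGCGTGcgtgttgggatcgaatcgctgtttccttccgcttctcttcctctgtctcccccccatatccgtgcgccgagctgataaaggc

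The canonical E-box CACGTG was found in 1 of the 8 windows, that of HNRNPD at −27 to −22, against 7.26% of all 35116 windows of the table. CACGCG was found in 2 of the 8, against 11.4% of all windows. HNRNPK held it once, at −81 to −76, and SRSF1 held it 3 times, at −142 to −137, −132 to −127 and −88 to −83, each on the other strand. GGGCGG was found in 6 of the 8, against 45.0% of all windows. Both strands were searched, and neither E-box form overlaps the other or the GC box. Sequence distances are from the GRCh38.p14 start site and summit distances below from the hg19 start site, with no conversion between the builds.

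The lists held 113, 11462 and 13068 peaks in shG9a_1, 11168, 17454 and 12922 in shG9a_4, and 29827, 34738 and 20118 in shSCR. Replicate 1 of shG9a_1, with 113 peaks, stood apart, and results are given with and without it. Read depth is not listed. Relative depth recovered from the peak values, with the shSCR mean as 1, was 0.841 and 1.09 in shG9a_1 replicates 2 and 3, 1.90, 1.05 and 2.65 in shG9a_4, and 1.04, 1.04 and 0.925 in shSCR. For shG9a_1 replicate 1 the same measure gave 2.36, from only 113 peaks, the shortest of 51 bp. The shortest peak of the other libraries was 130 to 157 bp.

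MYC peaks were listed at all 10 genes in all 3 shSCR libraries. At 9 of the 10, all but HNRNPC, each of 5 shG9a libraries also listed a peak, and at HNRNPU and PCBP1 so did the sixth, replicate 1 of shG9a_1. Of the 24 merged regions at these genes, 13 were called in all 3 shSCR libraries. Among these 13, all 5 of those shG9a libraries called 12, where over the whole series 36.9% of the 14209 such regions were called in all 5. No region of the 13 was missing from every shG9a library, as were 9.49% of the 14209. All 9 libraries called 2 of the 13, against 0.767% of the 14209. The genes were known to be called in these lists, so nothing about the gene families is read from these shares.

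With windows of 1 or 5 kb in place of 2 kb, the number of genes with a peak in all 8 libraries was also 9. The outermost listed peak inside it was in shSCR replicate 2, with its near end 1962 bp from the start site of PCBP1, its summit at −2184 bp and a fold enrichment of 4.01. The first outside it, also in shSCR replicate 2, had its near end 2093 bp from the start site of SRSF2 and a fold enrichment of 6.43. Between 2 and 5 kb, 3 further peaks were listed near PCBP1 and 2 near SRSF2, and none near the other 8 genes.

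Summits recurred at much the same places across libraries. The exons and introns under them were not annotated here. When summits of different libraries were linked at gaps of up to 150 bp, 9 genes had at least 1 site in 7 or more libraries. At none of the 9 did the site with the highest mean shSCR fold lie within 250 bp of the start site. That site lay downstream at 5 genes and upstream at 4, and its mean distance ran from 355 to 1404 bp. If both builds place the start site at the same base, the 250 bases printed above reach none of these summits. They reach the weaker, start-proximal sites of HNRNPU and HNRNPK. They also reach that of PCBP2, whose mean shSCR fold of 10.2 was close to the 10.9 of its downstream site. The start-proximal fold of PCBP2 was the higher in shSCR replicates 1 and 3 and the lower in replicate 2.

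**Figure D1:**
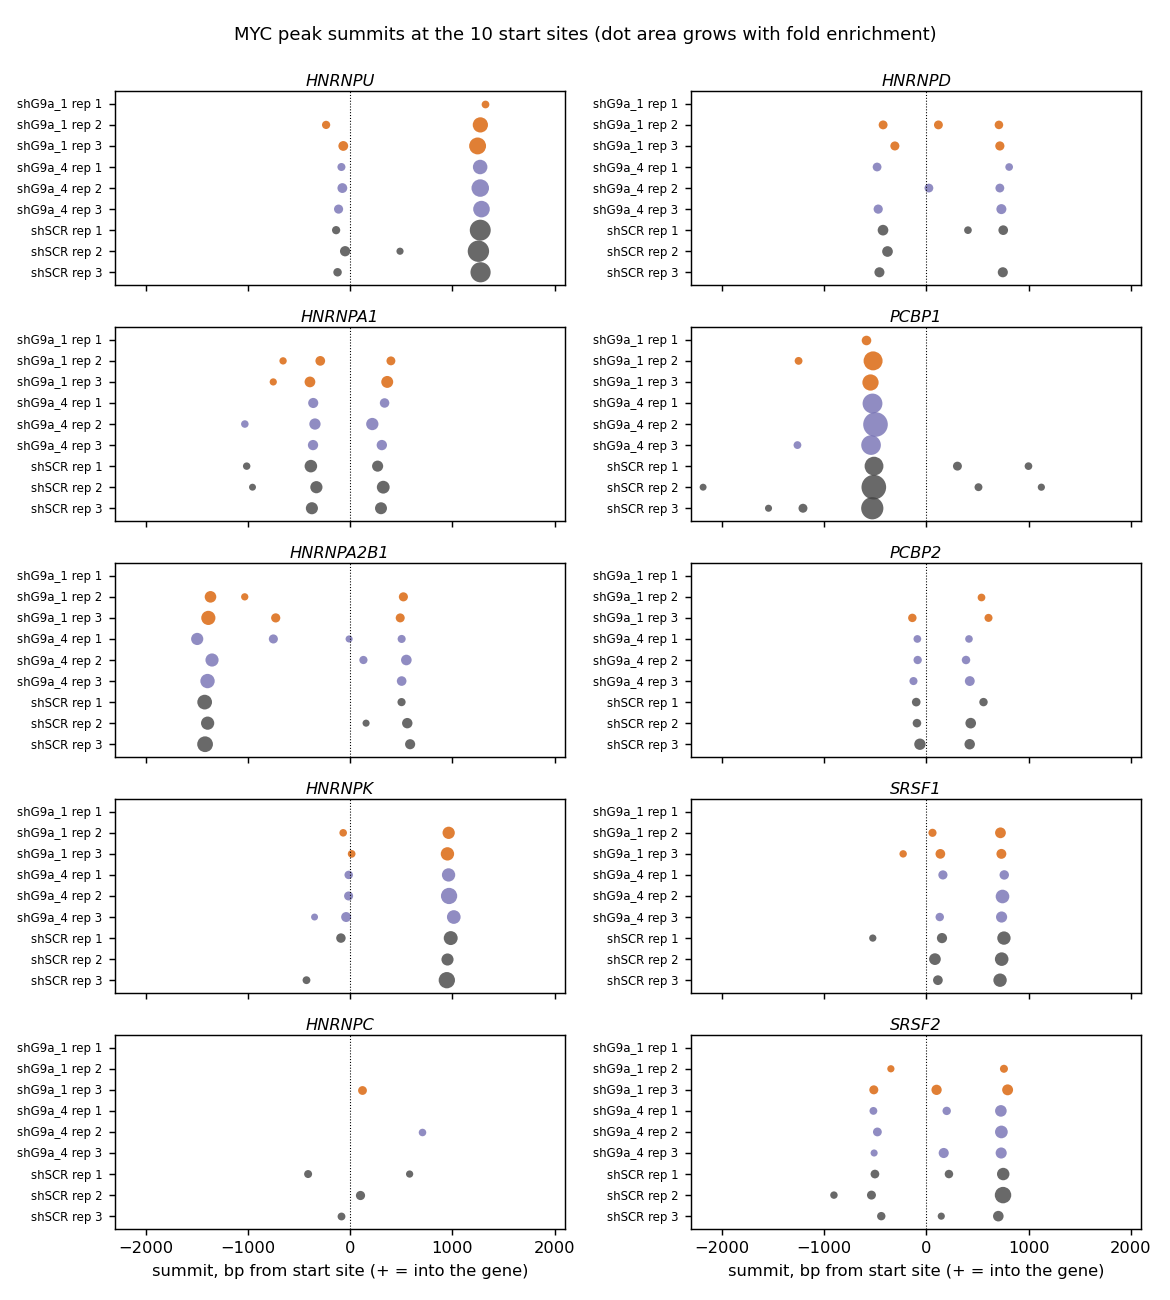
Position of every listed MYC peak summit at the 10 genes. The horizontal axis is the distance in bp from the hg19 start site, positive into the gene, each row is 1 library (shG9a_1, shG9a_4, then shSCR, replicates 1 to 3), and the area of a dot grows with the authors' fold enrichment. The same column of dots recurs down the rows at 9 genes, such as HNRNPU at 1275 bp and PCBP1 at −534 bp, while the dots of HNRNPC fall at 4 different places.

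Among the hnRNP genes, the highest enrichment was at HNRNPU, whose product is a scaffold protein that binds RNA and chromatin. Its main region, at chr1:245026090-245027137 (hg19), was at rank 6 of the 14209 regions by strength, the mean percentile of its q-value in the 3 shSCR lists. The summit lay 1275 ± 19.6 bp into the gene (SD, n = 9 libraries). The authors' fold enrichment there averaged 33.8 (range 26.7 to 40.1) in the 5 shG9a libraries (without replicate 1 of shG9a_1), against 57.9 (range 54.1 to 61.0) in shSCR. In shG9a_1 replicate 1 it was 5.62. By q-value the peak ranked 79, 24 and 29 in shG9a_1, 22, 33 and 11 in shG9a_4, and 4, 7 and 16 in shSCR, where rank 79 is out of 113. A second, weaker site lay at −111 ± 58.4 bp (SD, n = 8 libraries), a distance that the printed stretch covers, and its mean fold was 8.69 in shG9a and 8.70 in shSCR.

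HNRNPA2B1 and HNRNPK came next in enrichment. HNRNPA2B1 encodes a protein that binds pre-mRNA and microRNA precursors. Its main region, chr7:26240690-26242144 (hg19), was at rank 270 of the 14209. The strongest site lay 1404 ± 44.4 bp upstream (SD, n = 8 libraries), on the side of CBX3, with a mean fold of 21.4 in shG9a and 27.0 in shSCR. A second site inside HNRNPA2B1, at 527 ± 34.2 bp (SD, n = 8 libraries), had 9.41 in shG9a and 10.2 in shSCR. HNRNPK encodes a KH-domain protein that binds cytosine-rich RNA and DNA. Its region, chr9:86594256-86596089, was at rank 373. The summit lay at 968 ± 22.1 bp (SD, n = 8 libraries), with folds of 18.3 to 34.2 in shG9a and 17.8 to 34.4 in shSCR, which overlap. A start-proximal site of HNRNPK, at −35 bp on average, was listed in all 5 shG9a libraries and in 1 shSCR library. In shSCR replicates 2 and 3 a single peak, of 1583 and 1398 bp, spanned the start site with only its strongest summit listed, so a missing proximal summit there is not a missing signal.

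HNRNPA1, which encodes a repressor of exon inclusion, had summits on both sides of its start site, within 1 region at chr12:54673664-54675222 (hg19) of rank 966. They lay at −355 ± 32.7 bp and at 315 ± 55.9 bp (SD, n = 8 libraries each). Mean fold at the upstream site was 12.5 in shG9a and 18.3 in shSCR, and at the downstream site 13.2 in shG9a and 17.3 in shSCR. HNRNPD, which encodes the AU-rich element binding protein AUF1, had a similar pair in its region at chr4:83294083-83295839, of rank 2662. The pair lay at −421 ± 60.6 bp and 742 ± 33.9 bp (SD, n = 7 libraries each). Mean fold at its upstream site was 8.55 in shG9a and 12.6 in shSCR. A further HNRNPD summit was listed in 2 shG9a libraries, at 25 and 118 bp. In shSCR replicates 2 and 3 a single peak, of 1731 and 1059 bp, spanned both places with only its strongest summit listed. A missing summit there is thus not a missing signal.

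HNRNPC, which encodes a protein that binds uridine tracts in nascent RNA, was the exception. No site of it was listed in more than 2 libraries. Its best peak had a fold of 8.08 in shG9a_1 replicate 3 and 5.23 in shG9a_4 replicate 2, and of 6.19, 9.07 and 5.86 in shSCR. The other 4 shG9a libraries listed no peak at HNRNPC. Its best peak was within the top 33.7% of the list in shG9a_1 replicate 3 and the top 83.5% in shG9a_4 replicate 2, and within the top 53.5%, 26.4% and 68.1% in shSCR. With every list other than that of shG9a_1 replicate 1 limited to its best 11168 peaks, HNRNPC was listed in 1 shG9a library and in 1 shSCR library.

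PCBP1 and PCBP2 had very different ranks, and PCBP1 is an intronless copy derived from PCBP2. The region at PCBP1, chr2:70312984-70315163 (hg19), was at rank 4 of the 14209 by strength, and PCBP2, at chr12:53846136-53846639, was at rank 4978. PCBP1 ranked 9, 4 and 16 in shG9a_1, 3, 4 and 7 in shG9a_4, and 13, 2 and 6 in shSCR, where rank 9 is out of 113. It was thus within the first 16 peaks of every list. Its summit lay at −534 ± 26.7 bp (SD, n = 9 libraries), and fold enrichment was 34.1 to 81.8 in the 5 shG9a libraries, 10.1 in shG9a_1 replicate 1, and 46.7 to 82.1 in shSCR. PCBP2 had summits at −99 ± 25.3 bp (SD, n = 7 libraries), a distance that its printed stretch covers, and at 474 ± 81.1 bp (SD, n = 8 libraries). Mean fold at the start-proximal site of PCBP2 was 6.55 in 4 shG9a libraries and 10.2 in shSCR. The fifth, shG9a_1 replicate 2, listed no peak there, which made this the 1 region of the 13 not called in all 5.

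SRSF1 and SRSF2, both of which bind exonic splicing enhancers, were alike in the place of their summit. Their regions, chr17:56083719-56085213 (hg19) for SRSF1 and chr17:74732332-74733561 for SRSF2, were at ranks 703 and 1179. The summit lay 739 ± 14.6 bp into SRSF1 and 744 ± 26.7 bp into SRSF2 (SD, n = 8 libraries each). Mean fold at SRSF1 was 14.4 (range 9.75 to 23.2) in shG9a and 22.5 (range 22.2 to 23.03) in shSCR, so 1 shG9a library was above all shSCR libraries. SRSF2 had 14.1 (range 6.26 to 19.8) in shG9a and 22.3 (range 12.9 to 35.1) in shSCR, again with overlap. SRSF1 also had a start-proximal site at 120 ± 37.0 bp (SD, n = 7 libraries). SRSF2 had a second site at −481 ± 61.6 bp (SD, n = 8 libraries), on the side of MFSD11.

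**Figure D2:**
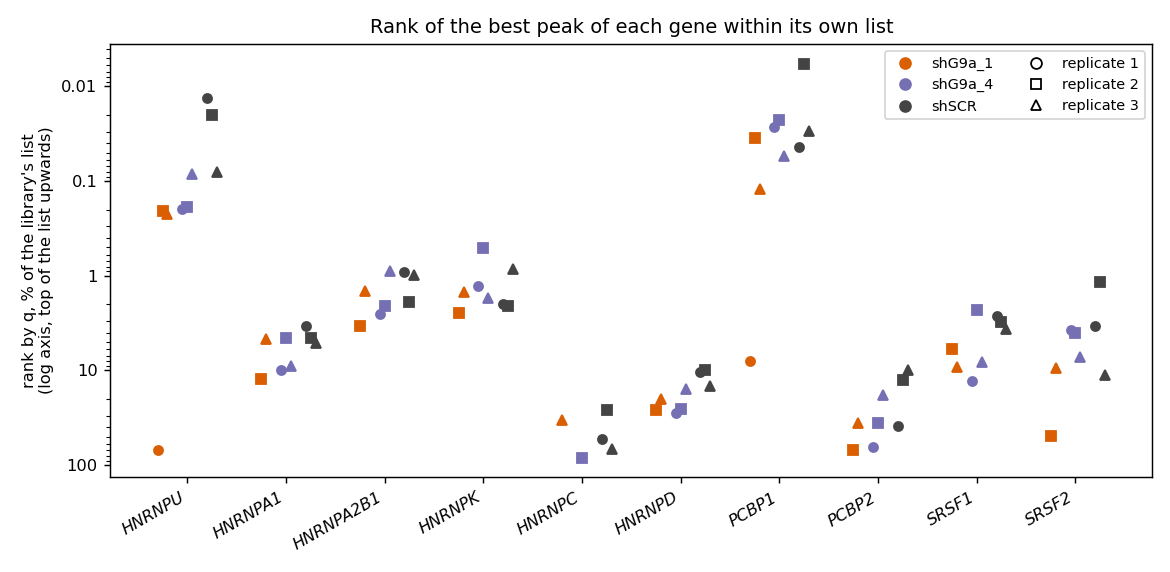
Rank of the best peak of each gene by the deposited q-value, as a percent of the peaks in its own list. The vertical axis is logarithmic with the top of the list upwards, colours mark shG9a_1, shG9a_4 and shSCR from left to right, and shapes mark replicates. PCBP1 and HNRNPU sit highest apart from shG9a_1 replicate 1, whose list has 113 peaks, and HNRNPC lacks a point in 4 shG9a libraries.

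Lists of different length give ranks that show no change in binding, so the signal itself was compared. For each peak the summit pileup (the number of overlapping fragments) was recovered from the deposited fold and p-value and divided by the lowest genome-wide background of its library. This value needs no correction for length, since it is read at 1 base. Where a library listed several peaks in a region, the highest value was taken. At HNRNPA1 and HNRNPD that peak lay upstream of the start site in some libraries and downstream in others, so the values compared there mix sites. Of PCBP2 only the region at 474 bp was compared. Its region at −99 bp, not listed in shG9a_1 replicate 2, had the higher pileup in some libraries and the lower in others. In shSCR replicate 3 it had 51.5 against 41.7, and in shSCR replicate 2 it had 28.7 against 51.2. Of the 10 genes, 9 had a region called in all 8 libraries other than shG9a_1 replicate 1, and HNRNPC did not. In a bulk immunoprecipitation, fewer bound cells and less binding per cell cannot be told apart.

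HNRNPU had 175.5 and 159.7 times the background in shG9a_1 and 106.8, 184.6 and 119.3 in shG9a_4, against 294.7, 317.4 and 267.4 in shSCR. PCBP1 had 194.4 and 197.0 in shG9a_1 and 137.0, 272.7 and 113.5 in shG9a_4, against 267.9, 350.2 and 289.5 in shSCR. Every shG9a library was below every shSCR library at HNRNPU, while at PCBP1 replicate 2 of shG9a_4 was above the lowest shSCR library. HNRNPA1 had 51.3 and 62.2 in shG9a_1 and 31.4, 67.1 and 33.9 in shG9a_4, against 80.4, 90.1 and 85.9 in shSCR. HNRNPA2B1 had 75.6 and 87.1 in shG9a_1 and 46.5, 96.5 and 62.1 in shG9a_4, against 118.3, 131.1 and 134.9 in shSCR. HNRNPD had 29.7 and 39.4 in shG9a_1 and 20.1, 42.0 and 23.3 in shG9a_4, against 51.4, 65.5 and 56.4 in shSCR. The groups did not overlap at these 3 hnRNP genes, and replicate 2 of shG9a_4 was the highest shG9a library at each.

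HNRNPK had 75.6 and 99.5 in shG9a_1 and 54.0, 134.3 and 50.4 in shG9a_4, against 87.1, 143.4 and 132.5 in shSCR. PCBP2 had 21.6 and 27.0 in shG9a_1 and 13.8, 31.5 and 20.4 in shG9a_4, against 29.0, 51.2 and 41.7 in shSCR. At both genes replicate 1 of shSCR was below the highest shG9a library, so the groups overlapped. At HNRNPK replicate 3 of shSCR was below it too, and replicate 1 of shSCR was also below replicate 3 of shG9a_1. SRSF1 had 64.8 and 62.2 in shG9a_1 and 31.4, 81.8 and 30.1 in shG9a_4, against 78.2, 92.2 and 81.0 in shSCR. SRSF2 had 29.7 and 43.6 in shG9a_1 and 41.5, 65.0 and 33.0 in shG9a_4, against 80.4, 114.7 and 63.8 in shSCR. The SR genes also overlapped between groups, by replicate 2 of shG9a_4 alone. In all, groups did not overlap at 4 of the 9 genes, where 56.5% of the 5245 regions called in the same 8 libraries did not. In shG9a_1 replicate 1, HNRNPU had 38.8 times the background and PCBP1 44.3.

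**Figure D3:**
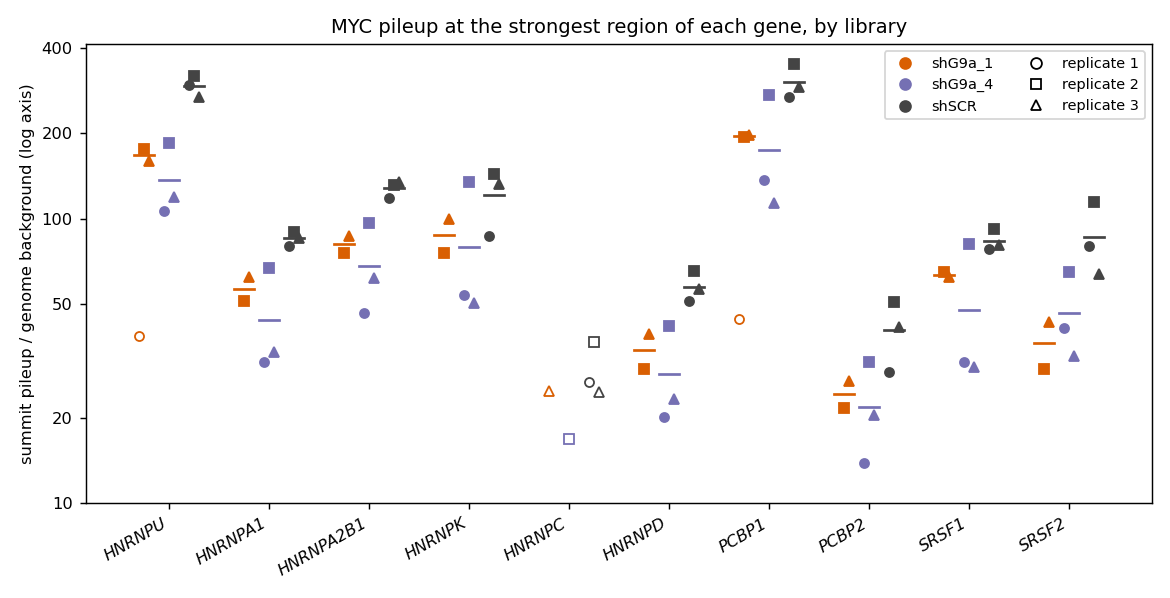
Summit pileup over the genome-wide background of its library at the strongest region of each gene, on a logarithmic axis. Each point is 1 library, bars are arithmetic means of the filled points, colours mark shG9a_1, shG9a_4 and shSCR from left to right, and open points (shG9a_1 replicate 1 and all of HNRNPC) are outside the comparison. Replicate 2 of shG9a_4 is the highest shG9a point at all 9 compared genes, and the shSCR mean is the highest of the 3 at each of them.

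Pileup was then compared between the pooled hairpins and shSCR with limma over all 5245 regions, with Benjamini-Hochberg adjustment over all of them. Pileup was lower in shG9a at 7 of the 9 genes at an adjusted p under 0.05, and 72.0% of all 5245 regions were called lower. The median log2 difference was −0.82 over the 9 genes and −0.85 over all regions, and the 9 values lay between the 5th and 95th percentiles of all regions, −1.24 and −0.42. SRSF2 had the lowest value, with a log2 difference of −1.06 ± 0.33 (SE, limma adjusted p = 0.00851), and HNRNPU followed with −0.97 ± 0.32 (SE, limma adjusted p = 0.0104). HNRNPD, PCBP2, HNRNPA1, HNRNPA2B1 and PCBP1 fell by 0.76 to 0.92, with limma adjusted p of 0.0182 to 0.0302. The 2 genes that did not pass were SRSF1, at −0.68 (95% interval −1.33 to −0.04, limma adjusted p = 0.0514), and HNRNPK, at −0.59 (95% interval −1.22 to 0.04, limma adjusted p = 0.0819).

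These pileups come from the peaks by whose calls the genes were known, so the p-values describe single regions and are no evidence about the gene families. The count of 7 rests on single libraries. Leaving out replicate 2 or 3 of shG9a_1 made it 1 each time, with 24.4% or 26.1% of all regions called lower in the same fits. Leaving out replicate 1, 2 or 3 of shG9a_4 made it 2, 9 or 5, with 42.3%, 97.1% or 46.6% of regions. Leaving out replicate 1, 2 or 3 of shSCR made it 1, 0 or 2, with 20.2%, 0.0% or 48.9% of regions. An exact two-sided permutation test of the group labels, added after the data were seen, called none of the 9 genes and none of the regions. Its smallest possible p, 0.0357, was reached at 4 of the 9 genes and at 56.5% of regions, and the smallest adjusted p was 0.0632. Much of the spread was 1 shift per library shared by all regions, which a fit over regions treats as better known than 8 libraries allow: the SE at HNRNPU was 0.12 after libraries were centred on their median region and 0.32 before. The median region had 35.1 and 35.3 times the background in shG9a_1 and 22.6, 42.0 and 22.3 in shG9a_4, against 53.6, 63.5 and 51.5 in shSCR. The shG9a_4 libraries of lowest pileup, replicates 1 and 3, had the highest relative depth of these 8 libraries, 1.90 and 2.65, and the part of depth in the difference was not tested. The 5 libraries of like depth hold only 1 library of each hairpin, so no spread within a hairpin enters and only differences are given. With them alone, the median was −0.44 over the genes and −0.53 over all regions. With pileup over the local background, 0 of the 9 genes and 2.33% of regions were called lower, and the medians were −0.64 and −0.65. With replicate 1 of shG9a_1 included, HNRNPU and PCBP1 could be tested among 109 regions, and 0 of the 2 were called.

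The same comparison was made relative to the median region of each library. After each library was centred on its median region, limma called 0 of the 9 genes, 0.0572% of the 5245 regions as lower and 0.477% as higher. At an unadjusted p under 0.05, 0 of the 9 genes and 500 regions were past the threshold. The centred differences ran from −0.22 at SRSF2 (95% interval −0.60 to 0.16) to 0.26 at HNRNPK (95% interval −0.07 to 0.58), with limma adjusted p of 0.646 to 0.988. The 2 genes with the narrowest intervals were PCBP1, at 0.09 (95% interval −0.13 to 0.31), and HNRNPU, at −0.13 (95% interval −0.36 to 0.10).

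The order of the genes within a library varied little for the strongest. Among the 5245 regions, the pileup of PCBP1 was between the 99.77 and 99.9 percentile in all 8 libraries, and that of HNRNPU between 99.47 and 99.87. HNRNPA2B1 stayed between 92.53 and 97.2. SRSF2 moved most, with the percentiles 35.1 and 68.6 in shG9a_1 and 89.7, 82.0 and 79.0 in shG9a_4, against 79.9, 88.0 and 68.6 in shSCR. Its lowest value was that of shG9a_1 replicate 2. PCBP2 was low throughout, between 6.24 and 42.6, and HNRNPD was between 35.1 and 61.0.

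**Figure D4:**
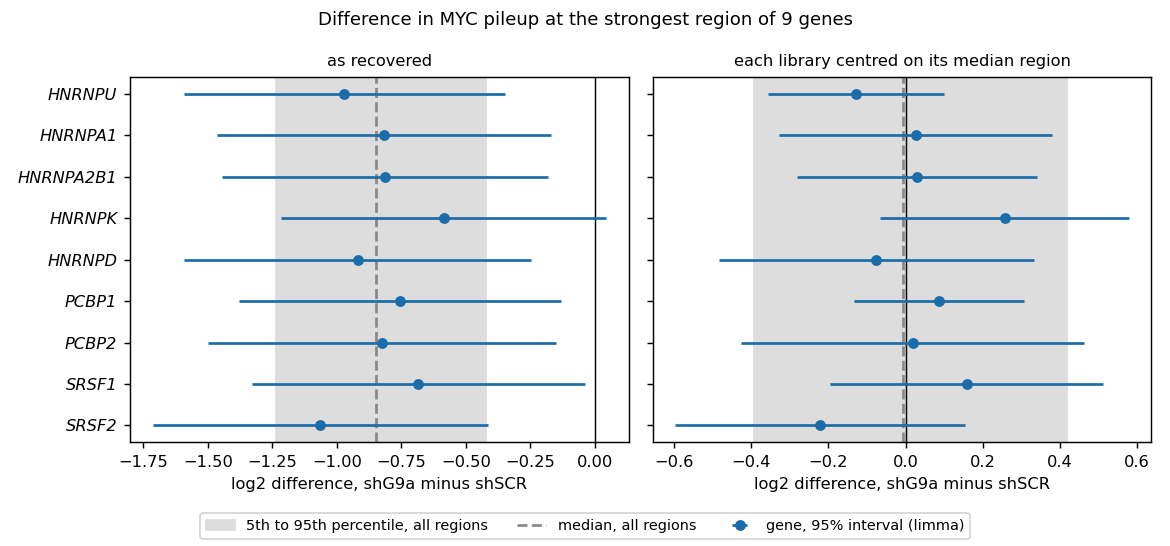
Log2 difference in summit pileup, shG9a minus shSCR, at the strongest region of 9 genes. Points are limma estimates with 95% intervals, the grey band holds the 5th to 95th percentile of all 5245 regions and the dashed line is their median, on the left for the pileup as recovered and on the right after each library was centred on its median region. The 9 points lie inside the grey band in both panels, around a median of −0.85 on the left.

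The hairpins were also compared with shSCR one at a time, on the same shSCR libraries. For shG9a_1, limma called 0 of the 9 genes and 0.0% of regions lower, while 2 of the 9 genes and 1580 regions had an unadjusted p under 0.05. Leaving out shG9a_4 replicate 2 made this count 7, with 56.3% of regions. For shG9a_4, limma called 9 of the 9 lower, with 83.8% of regions. That count was 8 without shG9a_1 replicate 2 or 3, with 73.6% or 74.5% of all regions called lower. Without shG9a_4 replicate 1, 2 or 3 it was 1, 9 or 1, with 27.0%, 99.0% or 29.1% of regions. Without shSCR replicate 1, 2 or 3 it was 7, 0 or 6, with 58.4%, 21.3% or 71.7% of regions. The median over the genes was −0.66 for shG9a_1 and −0.97 for shG9a_4, and over all regions −0.67 for shG9a_1 and −1.02 for shG9a_4. The libraries of like depth hold only replicate 3 of shG9a_1 and replicate 2 of shG9a_4, so only differences are given for them. The medians over the genes were −0.55 for shG9a_1 and −0.35 for shG9a_4, and over all regions −0.63 and −0.41. With the local background, 0 of the 9 were called for either hairpin, with 0.267% of regions called lower for shG9a_1 and 5.2% for shG9a_4.

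The difference between the hairpins themselves, shG9a_1 minus shG9a_4, was called by limma at 0 of the 9 genes and at 0.0% of regions. None of the 9 genes and 205 regions had an unadjusted p under 0.05. Its median was 0.31 over the genes and 0.35 over all regions, and the sign depended on the setting. With the libraries of like depth both medians were −0.22 and all 9 genes were negative, and with the local background the medians were −0.11 over the genes and 0.28 over all regions. In the fit of all 8 libraries SRSF2 was the only gene of the 9 with a negative value, −0.31 (95% interval −1.12 to 0.50, limma adjusted p = 0.806), and the others ran from 0.22 to 0.58. Without shG9a_4 replicate 2, whose pileups were the highest of its group, limma called 6 of the 9 genes and 39.8% of regions higher in shG9a_1.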

How the data were processed

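Peak lists of 9 MYC ChIP libraries were analysed, and the 9 DNA inputs were not analysed here. Per the labels' protocols, single reads were 50 bp long. The submitters' processing notes name MACS2 2.1.0, STAR 2.5.2a, Picard 2.7.1 and SAMtools 1.3, and the build hg19. How the caller was set is not given in the sources used here. The authors listed peaks per library. The deposited score is 10 times the −log10 q-value, and the deposited fold is (pileup + 1)/(local background + 1). The authors' lists give −log10 of p and of q at each summit.

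From these, whole-number pileups were recovered (100% within 0.001 on the −log10 p scale). Strength is the mean shSCR percentile by q-value. Peaks on chromosomes 1 to 22 and X were kept, which left out 192 of 151062 peaks on other sequences, and were then merged at 1 bp of overlap. Depth is relative: the lowest background shared by at least 1% of a library's peaks, over its shortest peak. Pileup over that background was tested on the log2 scale with limma 3.58.1 (R 4.3.3, trend, 1 coefficient per hairpin, no block). In simulated data, limma called 97 of 100 planted log2 changes of −2, 22 of 100 of −1, and 6 of 5045 unchanged regions. The simulated noise was independent between regions, so it cannot show how the fit treats a shift shared by all regions of a library. The genes, all named, and the tests were chosen with earlier results of these data known. The strand of HNRNPA1 and SRSF2 came from general knowledge. Alternatives were other windows and q-value limits, equal peak numbers, a replicate block, no trend, other regions and backgrounds, libraries of like depth and leaving out each library. The summit sites, the count in all 9 libraries and the permutation test were added after the data were seen. Other hnRNP, PCBP and SR genes were not analysed here. Nothing says whether replicates were separate cultures beyond "biological". The limma p-values and intervals rest mainly on a spread between these libraries estimated over all regions, rather than on the spread at each gene.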

Additional observations from a re-analysis of the deposited data

How the results depend on the processing

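Peaks were listed at 9 genes in all 8 libraries with windows of 1 and 5 kb, with the summit inside the window and without each library in turn, at 8 with a −log10 q of at least 5 or equal peak numbers, and at 2 in all 9 libraries. The count of genes lower in both hairpins was 7, with 72.0% of regions called lower. It was 9 with the replicate block (86.3% of regions) and 0 with the local background (2.33%). It was also 0 with the 2 regions called in all 9 libraries (0.0% of 109 regions) and 0 by the permutation test. Without 1 library it was 0 to 9, with 0.0% to 97.1% of regions. For shG9a_1 the count of 0 became 1 with the replicate block (19.2% of regions) and 0 to 7 without 1 library (0.0% to 56.3%). For shG9a_4 the count of 9 became 0 with the local background (5.2% of regions) and 0 with all 9 libraries (0.0% of 109 regions). Without 1 library the shG9a_4 count was 0 to 9, with 21.3% to 99.0% of regions. Between hairpins it was 0 to 6 without 1 library, and the centred count was 0 in every setting run. Same-numbered libraries of different groups correlated by −0.0209 to 0.155 (median 0.0544) in their deviations, and others by −0.145 to 0.0819 (median −0.0382). A correlation over regions cannot see a shift shared by all regions of a library, so it cannot decide whether the numbers mark pairs. The main fit did not read them as pairs, and the replicate block is the alternative that does.

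No log2 difference of the 9 genes turned sign in 119 values for both hairpins (−1.32 to −0.03) or for shG9a_1. For shG9a_4 HNRNPK turned to 0.18 at like depth and PCBP1 to 0.041 with the local background. Between hairpins, 16 of 119 values turned. At like depth HNRNPU was −0.21, HNRNPA1 −0.11, HNRNPA2B1 −0.15, HNRNPK −0.43, HNRNPD −0.091, PCBP1 −0.47, PCBP2 −0.22 and SRSF1 −0.40. With the local background HNRNPK was −0.20, PCBP1 −0.56, PCBP2 −0.15 and SRSF1 −0.11, with all 9 libraries HNRNPU was −0.37 and PCBP1 −0.44, and with the replicate block PCBP2 was −0.035. Without 1 library PCBP2 ran from −0.069 to 0.52. Centred, 14 of 119 turned. HNRNPA2B1 was −0.001 and PCBP2 −0.066 with the replicate block, HNRNPD 0.33, PCBP2 −0.25 and SRSF1 −0.29 with the local background, HNRNPD 0.021 at like depth, and PCBP1 −0.027 with all 9 libraries. Without 1 library HNRNPA1 ran from −0.026 to 0.09, HNRNPA2B1 from −0.043 to 0.13, HNRNPD from −0.13 to 0.02 and PCBP2 from −0.17 to 0.12. The cause of these turns was not tested. Depth is known only relative to other libraries, and an unlisted peak is not an unbound site.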
